A study of Carassius auratus with 6 samples.

Results

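Transcript levels of the positive arm of the circadian clock and of its bZIP output factors were compared in whole eyeballs of goldfish (Carassius auratus). CLOCK, its close relative NPAS2 and BMAL1 (also called ARNTL) are bHLH-PAS proteins that bind E-boxes in pairs and switch on the period and cryptochrome genes, whose products then shut the activators off. TEF, HLF and DBP, the PAR bZIP factors, are driven by this loop and activate genes through D-box elements. NFIL3 (E4BP4) binds the same elements and represses. In zebrafish most tissues, the eye included, hold clocks of their own that light can set, and D-boxes take part in the response to light.

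Members were the gene models whose best Swiss-Prot match carries the gene name clock, npas2, arntl, arntl2, bmal1, bmal2, tef, hlf, dbp or nfil3, with or without a copy suffix. This rule found 41 of 56251 models: 7 clock, 7 arntl, 1 arntl2, 7 tef, 10 hlf and 9 nfil3. No model carried npas2, bmal1, bmal2 or dbp in that column. The clock models on chromosomes 5 and 30 were, however, described in the files as encoding a protein like neuronal PAS domain-containing protein 2, and the goldfish RefSeq symbol of the chromosome 5 copy is npas2. Of the 41 members, 40 had their best goldfish protein in the RefSeq gene table (assembly ASM336829v1, used for names only), and 10 carried a gene symbol there.

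There were 3 libraries titled C (C1 to C3) and 3 titled R (R1 to R3), each made from eyes of fish 1 winter year old. The study compared celestial eyes, which point upward in a fancy goldfish breed, with normal eyes. The labels contradict each other on the letters: the sample characteristics give C as normal and R as celestial-eyed, and the series text gives the reverse. Directions are therefore given as C against R, with no phenotype attached. The 2 kinds of fish came from different farms, so phenotype, stock and farm cannot be told apart. No source used here gives the time of day or the lighting at collection.

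Libraries held 9444623 to 11317200 reads recovered in gene models, and 3 reads in a gene of 1 kb corresponded to 0.265 to 0.318 FPKM (fragments per kilobase of model, scaled to the library total). The letters separated the libraries: correlations of log2(FPKM + 1) were 0.946 to 0.965 within a letter and 0.862 to 0.884 between letters. Markers of the eye were present. Summed FPKM of the photoreceptor list (18 models, 7 of 8 symbols found) was 33860 to 45674 in C and 28854 to 34126 in R. Lens markers (29 models, 8 of 10 symbols) summed to 18458 to 33510 in C and 40132 to 43342 in R. Surface epithelium markers (15 models, 3 of 5 symbols) summed to 829 to 1164 in C and 1915 to 2971 in R, and red cell markers (5 models, 2 of 3 symbols) to 9031 to 23071 in C and 2506 to 5468 in R. No symbol found in these lists was at 0. Pigment epithelium, muscle and leukocyte markers overlapped between letters (480 to 1054 in C and 460 to 569 in R, 1207 to 3937 in C and 1837 to 2019 in R, 2582 to 3527 in C and 2520 to 2947 in R). Lens, surface epithelium and red cell levels thus moved with the letters, and their part in the results below was not tested. In whole eyeballs, fewer cells of a type and less RNA per cell cannot be told apart.

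Of the 41 members, 36 passed the filter of at least 1 FPKM in at least 3 libraries and were tested with limma on log2(FPKM + 1), with Benjamini-Hochberg adjustment over all 33907 models tested. At an adjusted p under 0.05, 13 of the 36 were called, 6 higher and 7 lower in C. Among all tested models 20.2% were called, 8.67% higher and 11.6% lower. With quantile normalization the members split as 7 higher and 5 lower, where 3460 of all 33907 tested models were called higher and 3527 lower. The classes went different ways. None of 14 activator models was called higher by limma (0 also at an unadjusted p under 0.05, and 1 unadjusted but 0 adjusted with limma-voom) and 5 were called lower, where quantile normalization called 1 higher and 3 lower. Of the others, 5 of 15 PAR bZIP models were called higher and 1 lower, and 1 of 7 nfil3 models was called in each direction. Median log2 fold changes (C minus R) were -0.45 for activators, 0.36 for PAR bZIP factors and -0.39 for nfil3, against -0.09 for all tested models. Within the PAR bZIP factors the median was 0.39 for hlf and -0.10 for tef, so the class median did not hold for tef. The 3 C and 3 R libraries did not overlap for 20 of the 36 members, 9 with C above R and 11 with C below R, where the background was 41.4%, 16.3% and 25.1%. Of the 36, 2 low models reached 1 FPKM in the libraries of 1 letter only, so that they could pass the filter only by differing.

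**Figure D1:**
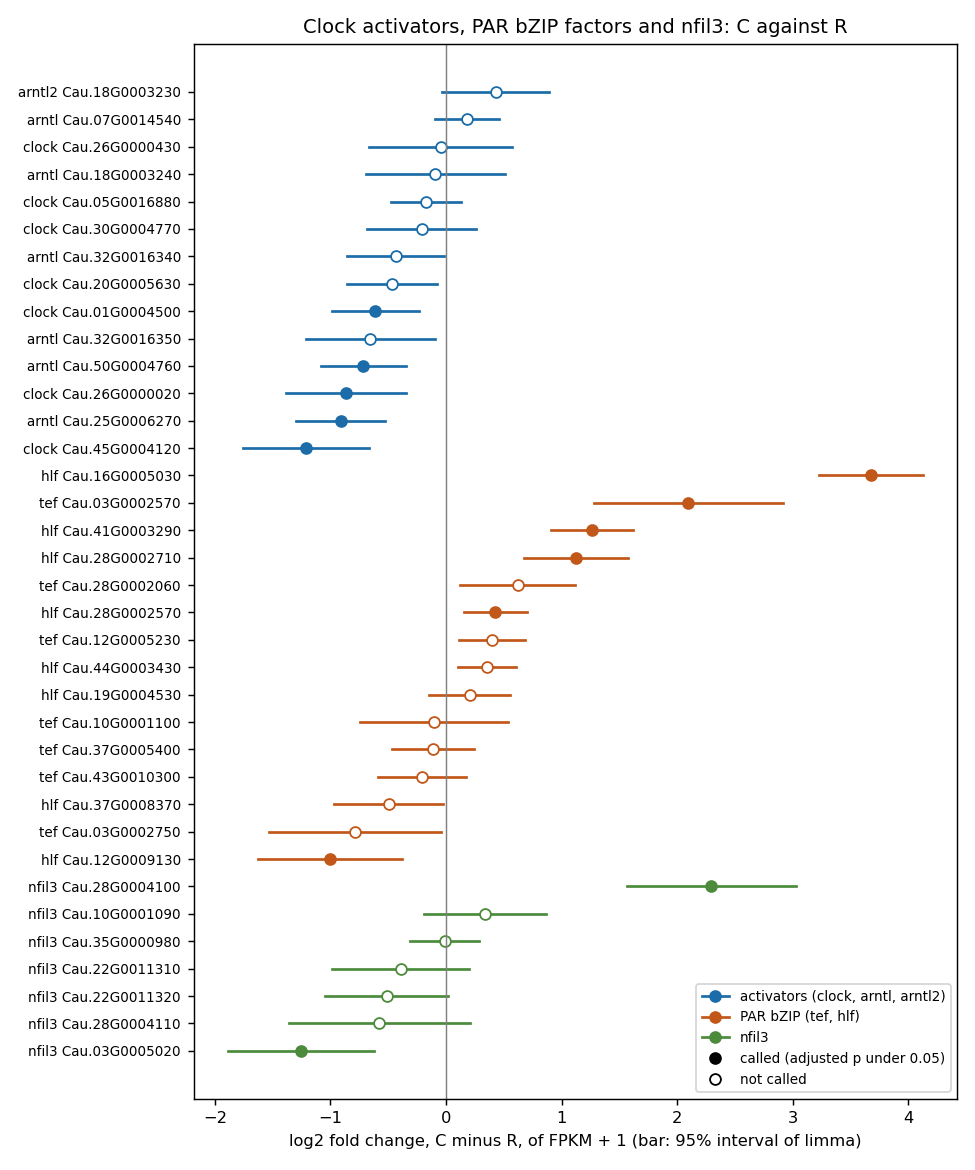
Log2 fold change of FPKM + 1, C minus R, for the 36 tested models (points) with the 95% interval of limma (bars), coloured by class; filled points were called at an adjusted p under 0.05. The 5 called activators lie left of 0, 5 of 6 called PAR bZIP models lie right of 0, and the called nfil3 models lie on both sides.

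Of 7 clock models, 3 fell in C and none rose. CLOCK is the bHLH-PAS partner of BMAL1. On chromosome 45 (positions are on a goldfish assembly whose name the files do not give), Cau.45G0004120 (12955334 to 12984415, plus strand) had 1.76, 2.76 and 1.05 FPKM in C1, C2 and C3, against 4.78, 5.57 and 5.97 FPKM in R1, R2 and R3. Every C library lay below every R library, and the log2 fold change was -1.21 (SE 0.24, adjusted p = 0.0114). The last bases of this model overlap the end of tmem165 on the other strand, and reads of the 2 genes may not be separated there. Its partner on chromosome 20, Cau.20G0005630, had 3.03, 2.9 and 2.11 FPKM in C libraries, against 3.66, 4.22 and 4.33 FPKM in R libraries, again without overlap, but missed the threshold (log2 fold change -0.47, 95% interval -0.86 to -0.08, adjusted p = 0.0886).

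The same direction was seen on chromosomes 1 and 26. Cau.01G0004500 (chromosome 1, 12718691 to 12732499, plus strand) had 2.78, 2.45 and 2.06 FPKM in C, against 4.05, 4.76 and 3.9 FPKM in R (log2 fold change -0.61, SE 0.16, adjusted p = 0.0349). Cau.26G0000020 (chromosome 26, 476054 to 490134, plus strand) had 2.3, 1.85 and 2.12 FPKM in C, against 3.13, 6.23 and 4.92 FPKM in R (log2 fold change -0.86, SE 0.22, adjusted p = 0.0329). In both, the letters did not overlap, and the widest spread was among the R libraries of the chromosome 26 copy. The other chromosome 26 copy, Cau.26G0000430, had 6.47, 5.54 and 3.51 FPKM in C, against 7.77, 4.26 and 4.24 FPKM in R, so its letters overlapped (adjusted p = 0.918).

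These calls were not equally firm. That of Cau.01G0004500 was lost without any 1 library (adjusted p 0.0621 to 0.141) and with quantile normalization (0.0631). That of Cau.26G0000020 was lost without C1, C2, C3, R2 or R3 (0.0608 to 0.121) and with quantile normalization (0.0645), and that of Cau.45G0004120 without R2 (0.0539) or R3 (0.0501). Their lowest adjusted p-values over the alternatives were 0.00957, 0.0145 and 0.00406 in the same order, and none changed sign.

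The clock models described as NPAS2-like were the highest of the group and were not called. NPAS2 can stand in for CLOCK as the partner of BMAL1 in mammals. Cau.05G0016880 (chromosome 5) had 17.3, 14.5 and 13.5 FPKM in C, against 16.1, 16.8 and 18.5 FPKM in R (log2 fold change -0.18, 95% interval -0.48 to 0.13). Cau.30G0004770 (chromosome 30) had 11.6, 11.7 and 7.72 FPKM in C, against 9.42, 12.4 and 14.5 FPKM in R (log2 fold change -0.21, 95% interval -0.69 to 0.26). The letters overlapped in both, and C3 was the lowest library in each.

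Among the arntl models, whose Swiss-Prot gene name is that of BMAL1, the chromosome 25 and 50 copies fell in C. Cau.25G0006270 (13968123 to 13977938, minus strand) had 4.32, 5.2 and 4.9 FPKM in C, against 8.26, 9.5 and 12.3 FPKM in R (log2 fold change -0.91, SE 0.17, adjusted p = 0.00862). Cau.50G0004760 (9155499 to 9166047, minus strand) had 4.04, 4.78 and 5.45 FPKM in C, against 7.15, 8.63 and 9.58 FPKM in R (log2 fold change -0.72, SE 0.16, adjusted p = 0.0188). C libraries lay below R libraries at both, and the R mean was 2.09 and 1.78 times the C mean at the chromosome 25 and the chromosome 50 copy. The first call held without any 1 library (adjusted p 0.018 to 0.0403), while that of Cau.50G0004760 was lost without C1 (0.0665), R2 (0.0823) or R3 (0.0762).

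The most abundant arntl model did not follow them. Cau.07G0014540, RefSeq symbol bmal1b (chromosome 7, 39157819 to 39182035, plus strand), had 15.3, 13.8 and 15.5 FPKM in C, against 13.4, 11.7 and 13.9 FPKM in R. Its letters overlapped, and the log2 fold change was 0.18 (95% interval -0.09 to 0.46, adjusted p = 0.313). On chromosome 32, Cau.32G0016340 had 3.56, 3.17 and 3.05 FPKM in C, against 5.58, 3.61 and 5.28 FPKM in R (adjusted p = 0.127). Next to it, 27 bases on and on the same strand, Cau.32G0016350 had 3.8, 3.66 and 3.88 FPKM in C, against 7.83, 8.51 and 4.08 FPKM in R (adjusted p = 0.0932, and 0.0146 without R3). Both models have the same best goldfish protein, and both had C below R in every library. They are 1221 and 585 bases long and may not be separate genes. If they are parts of 1 gene, adding their FPKM overstates its level, here and in the arntl and activator sums below. Summed before the fit, the 2 models had 7.36, 6.83 and 6.93 FPKM in C, against 13.4, 12.1 and 9.36 FPKM in R. The log2 fold change of this sum was -0.64 (SE 0.15, adjusted p = 0.0231). This alternative was chosen after the data were seen, and 20.0% of all summed features were called in it.

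The remaining arntl models were scarce. BMAL2, the product of arntl2, can replace BMAL1 in mammals. The arntl2 model Cau.18G0003230 (chromosome 18) had 1.49, 1.65 and 0.981 FPKM in C, against 0.55, 1.02 and 0.709 FPKM in R (log2 fold change 0.43, 95% interval -0.03 to 0.89, adjusted p = 0.166, and 0.0347 with quantile normalization, which called it higher). Its neighbour on the same strand, Cau.18G0003240, is named arntl by its Swiss-Prot match but has the same best goldfish protein as the arntl2 model. It had 0.768, 2.11 and 0.752 FPKM in C, against 1.05, 1.49 and 1.28 FPKM in R, with overlapping letters (adjusted p = 0.83). Cau.43G0003320 on chromosome 43 stayed below the filter, with 0.155 to 0.302 FPKM in C and 0.638 to 0.982 FPKM in R (12 reads over the C and 44 over the R libraries). Its KEGG number (K09099) is that of the arntl2 model, where the other arntl models carry K02296, so its place among them is unsure. Both Cau.18G0003240 and Cau.43G0003320 are counted in the arntl sum below.

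Among the PAR bZIP factors, hlf was the name with most calls. HLF is the hepatic leukemia factor, a D-box activator. The largest change of any tested member was at Cau.16G0005030 (chromosome 16, 16346142 to 16355699, minus strand), with 19.0, 22.1 and 19.1 FPKM in C, against 1.1, 0.318 and 0.613 FPKM in R. This was 2191 reads over the C and 76 over the R libraries. The C mean was 29.7 times the R mean, and the log2 fold change was 3.68 (SE 0.19, adjusted p = 4.09e-05). The partner model on chromosome 41, Cau.41G0003290 (12872889 to 12880828, plus strand), had 24.2, 24.6 and 24.0 FPKM in C, against 12.1, 8.1 and 8.8 FPKM in R (log2 fold change 1.26, SE 0.15, adjusted p = 0.00165). In C the 2 models differed little in level, while in R all 3 libraries had less of the chromosome 16 copy (39, 12 and 25 reads) than of the chromosome 41 copy. Both calls held without any 1 library, at adjusted p-values up to 0.000899 and 0.0109.

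Both hlf models on chromosome 28 also rose in C. They lie on opposite strands and have the same best goldfish protein, which the RefSeq table calls hlfa. Cau.28G0002570 (6746875 to 6758427, plus strand) had 45.2, 43.5 and 41.4 FPKM in C, against 35.8, 30.4 and 30.1 FPKM in R (log2 fold change 0.43, SE 0.12, adjusted p = 0.0392). Cau.28G0002710 (6927676 to 6940739, minus strand) had 5.56, 3.82 and 5.25 FPKM in C, against 1.83, 1.26 and 1.99 FPKM in R (log2 fold change 1.12, SE 0.19, adjusted p = 0.007). The letters did not overlap in either. The call of the weaker copy held without any 1 library (0.00915 to 0.0359), whereas that of Cau.28G0002570 was lost without C1, C2, R1, R2 or R3 (0.0621 to 0.15), with quantile normalization (0.133) and with no low-value filter (0.0531), and was 0.0241 at its lowest over the alternatives.

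The hlf model of chromosome 12 fell in C. Cau.12G0009130 (chromosome 12, 21133006 to 21137971, plus strand) had 4.59, 7.58 and 5.6 FPKM in C, against 8.61, 12.7 and 18.2 FPKM in R (log2 fold change -1.0, SE 0.27, adjusted p = 0.0361). Its letters did not overlap, but the call was lost without C1 (0.113), C3 (0.0779), R2 (0.113) or R3 (0.103) and with no low-value filter (0.0535), in a range that began at 0.0242. The chromosome 37 copy, Cau.37G0008370, was not called, with 5.26, 7.96 and 5.41 FPKM in C, against 7.49, 8.47 and 11.5 FPKM in R and an overlap between C2 and R1 (log2 fold change -0.50, adjusted p = 0.126).

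The chromosome 19 and 44 copies of hlf missed the threshold. Cau.44G0003430 had 15.9, 16.8 and 14.9 FPKM in C, against 12.5, 12 and 12 FPKM in R (log2 fold change 0.36, 95% interval 0.11 to 0.61, adjusted p = 0.0542). The letters did not overlap there, and a median ratio set to 0 (0.0217), limma-voom (0.0421), a mean of at least 5 FPKM (0.0461) and leaving out C3 (0.0464) each brought it past the threshold. Cau.19G0004530 had 16, 19.3 and 14.2 FPKM in C, against 15.9, 12.3 and 14.3 FPKM in R, with overlapping letters (adjusted p = 0.369). Of the hlf models below the filter, Cau.03G0003590 had 0.104 to 0.296 FPKM in C and 0.117 to 0.325 FPKM in R. The other, Cau.37G0008520, had no read in any library, which allows up to 0.115 to 0.138 FPKM per library at a floor of 3 reads.

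**Figure D2:**
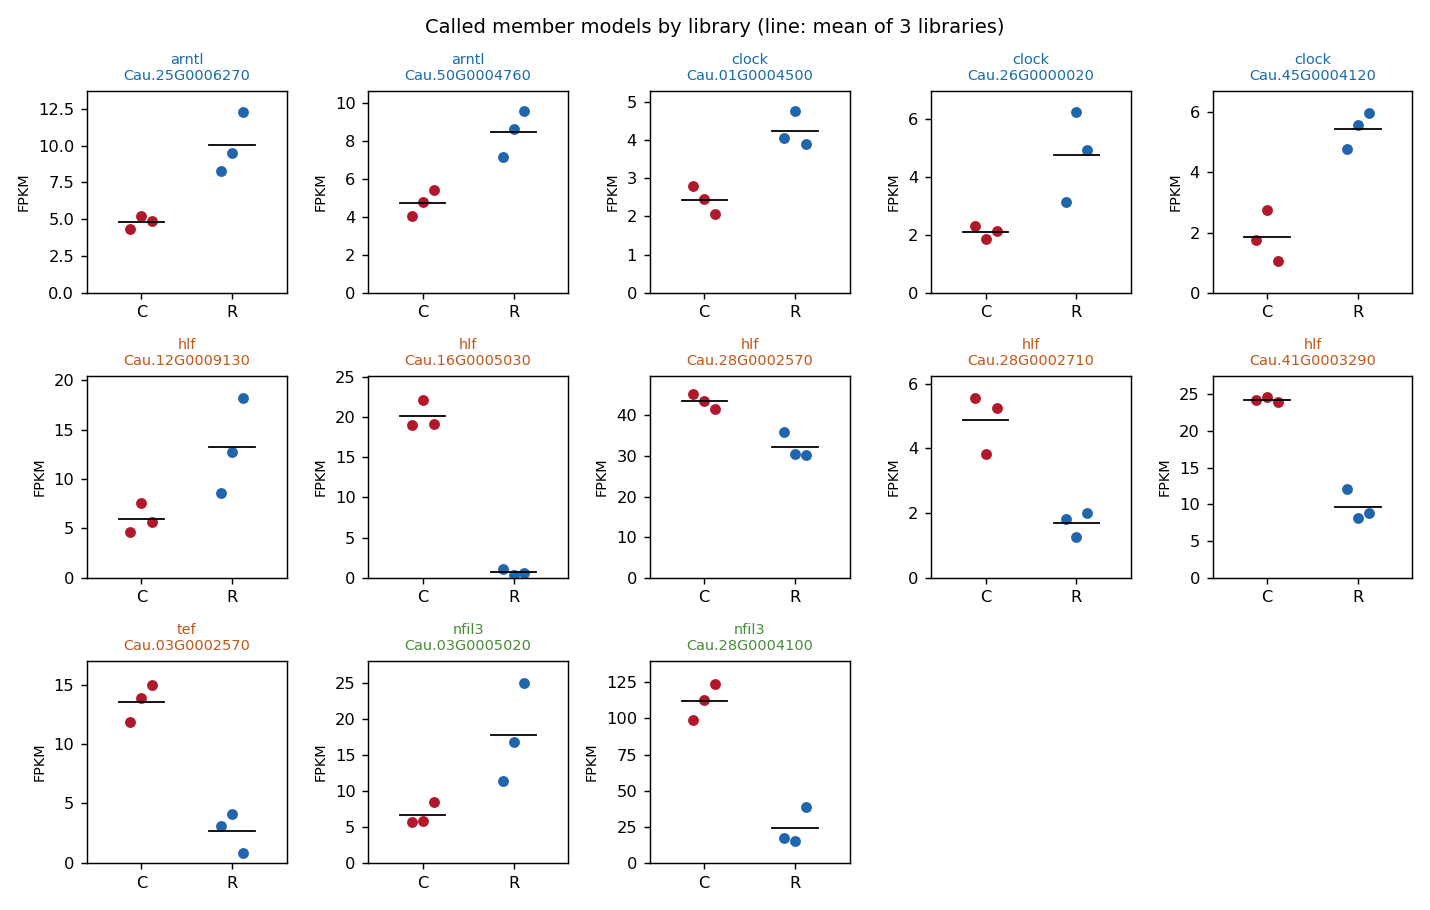
FPKM of the 13 called models in each library (points; C left, R right; the line is the mean of 3 libraries), with axes that start at 0 and differ between panels. In all 13 panels the C and R points do not overlap, and the hlf model on chromosome 16 has 19.0 to 22.1 FPKM in C and 0.318 to 1.1 FPKM in R.

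Of the tef models, which encode thyrotroph embryonic factor, 1 of 7 was called. It was Cau.03G0002570 (chromosome 3, 6256232 to 6261782, plus strand), with 11.8, 13.8 and 15.0 FPKM in C, against 3.14, 4.14 and 0.826 FPKM in R. The log2 fold change was 2.10 (SE 0.35, adjusted p = 0.00634, and 0.00393 to 0.0243 with 1 library left out). A second model with the same best goldfish protein, Cau.03G0002750, lies 109489 bases on and on the other strand (6371271 to 6376846, minus strand). It had 7.42, 3.86 and 3.07 FPKM in C, against 9.0, 5.71 and 11.8 FPKM in R (log2 fold change -0.79, 95% interval -1.54 to -0.04, adjusted p = 0.123). Within each letter the order of the libraries was reversed between the copies: C3 and R2 were highest at the first copy and lowest at the second, while C1 and R3 were lowest at the first and highest at the second. Summed, the copies had 19.3, 17.7 and 18.1 FPKM in C, against 12.1, 9.85 and 12.7 FPKM in R (log2 fold change 0.63, SE 0.13, adjusted p = 0.0133, in the fit by best protein). That alternative was chosen after the data were seen, and it called 20.0% of all summed features. It also called hlf on chromosome 28 (0.0224) and Cau.28G0004100 with Cau.28G0004290 (0.003) higher. The sums of tef on chromosomes 28 and 43 (0.943) and of arntl2 with its chromosome 18 neighbour (0.569) were not called. Neither was Cau.28G0004110 summed with the models that share its protein (0.205).

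The dominant tef model lay on chromosome 37 and did not differ beyond its spread. Cau.37G0005400 had 47.1, 61.1 and 67.0 FPKM in C, against 67.3, 60.6 and 59.7 FPKM in R (log2 fold change -0.11, 95% interval -0.46 to 0.24, adjusted p = 0.642). Its partner on chromosome 12, Cau.12G0005230, RefSeq symbol tefa, had 21.2, 20.6 and 23.7 FPKM in C, against 16.8, 17.8 and 14.5 FPKM in R. Its letters did not overlap, the log2 fold change was 0.40 (95% interval 0.11 to 0.68), and the adjusted p was 0.0583 (0.046 with limma-voom). On chromosome 43, Cau.43G0010300 had 4.45, 6.33 and 4.72 FPKM in C, against 6.9, 5.73 and 5.6 FPKM in R, with overlap (adjusted p = 0.406).

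The other tef models were low. Cau.28G0002060 had 1.07, 1.97 and 1.27 FPKM in C, against 0.758, 0.671 and 0.31 FPKM in R (adjusted p = 0.0805, and 0.0256 with quantile normalization), and reached 1 FPKM only in C, so a difference was built into its passing the filter. Cau.10G0001100 on chromosome 10 had 1.39, 2.31 and 1.19 FPKM in C, against 0.972, 2.63 and 2.01 FPKM in R (adjusted p = 0.819). This model overlaps an unnamed model on the other strand (Cau.10G0001110, mean 0.734 FPKM). Its KEGG number (K09059) is that of the nfil3 models, where the other tef models carry K09058. It also lies next to the nfil3 model Cau.10G0001090 on the same strand, so its place among the tef models is unsure.

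The repressor nfil3 was dominated by a model that rose in C. Cau.28G0004100, RefSeq symbol nfil3-6 (chromosome 28, 9851212 to 9855509, plus strand), had 99.1, 113 and 124 FPKM in C, against 17.2, 15.5 and 39.0 FPKM in R. The R libraries were uneven, with R3 above R1 and R2, yet all lay far below C. The log2 fold change was 2.30 (SE 0.31, adjusted p = 0.00276), and the call held without any 1 library (0.000448 to 0.0155). This model held 75.8% of the summed nfil3 FPKM in C and 31.3% in R, and in C it was the highest of all 41 members.

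Of the other nfil3 copies tested, 1 fell and 5 were not called. Cau.03G0005020, RefSeq symbol nfil3-2 (chromosome 3, 11137275 to 11138921, plus strand), had 5.66, 5.76 and 8.49 FPKM in C, against 11.4, 16.8 and 25 FPKM in R (log2 fold change -1.25, SE 0.27, adjusted p = 0.0172). Its letters did not overlap, and R3 was again the highest R library. The call was lost without C1 (0.0638) or R2 (0.0656), over a range from 0.0139. Cau.28G0004110, the next model after nfil3-6, had 6.42, 7.99 and 9.34 FPKM in C, against 8.04, 9.78 and 22.6 FPKM in R, where R3 set the R mean (adjusted p = 0.261).

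Further nfil3 models lay on chromosomes 10, 22, 28 and 35. Cau.10G0001090 had 15.4, 14.4 and 8.84 FPKM in C, against 7.9, 9.74 and 11.9 FPKM in R, and its partner Cau.35G0000980 had 6.17, 7.32 and 6.76 FPKM in C, against 7.31, 6.51 and 6.58 FPKM in R. Both overlapped, with log2 fold changes of 0.34 (95% interval -0.19 to 0.86) and -0.01 (95% interval -0.31 to 0.29). On chromosome 22, Cau.22G0011310 had 0.652, 1.05 and 0.465 FPKM in C, against 0.626, 1.37 and 1.9 FPKM in R. Its neighbour Cau.22G0011320, RefSeq symbol nfil3-4, had 0.939, 0.129 and 0.345 FPKM in C, against 1.03, 1.09 and 1.01 FPKM in R, and reached 1 FPKM only in R. Neither was called (adjusted p = 0.313 and 0.154).

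Below the filter, Cau.28G0004290 had the same best goldfish protein as the nfil3-6 model, from which it lies 297814 bases away on the same strand. It had 0.0953, 0.0918 and 0.109 FPKM in C, against 0.885, 1.87 and 1.91 FPKM in R, or 10 reads over the C and 166 over the R libraries. Its levels were therefore lower in C, where those of the first copy were higher, and the R mean was 15.7 times the C mean with no test in the main fit. In their sum the second copy counted for little, at 99.2, 113 and 124 FPKM in C, against 18.1, 17.3 and 40.9 FPKM in R. With no low-value filter, 9 nfil3 models were tested, and 1 was called higher and 2 lower. Of the 2 lower calls, that of Cau.03G0005020 was also made in the main fit, and the other was at a model below the main filter. Cau.28G0004320 had 0 to 0.33 FPKM in C and 0 to 1.38 FPKM in R.

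A model outside the rule had a higher FPKM than all nfil3 members summed, in every library. Cau.03G0005010 (chromosome 3, 11126570 to 11127688, plus strand) has no Swiss-Prot match but is described in the files as a protein like the nuclear factor interleukin-3-regulated protein, and it is the next model before nfil3-2. It was singled out after its values were seen. It had 482, 505 and 579 FPKM in C, against 94.7, 160 and 337 FPKM in R, where R3 was the highest and R1 the lowest R library, as at nfil3-2. The log2 fold change was 1.59 (SE 0.40, adjusted p = 0.0292), and the call was lost without C1, C2, C3, R1 or R2 (0.0555 to 0.102) and reached 0.00484 without R3.

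**Figure D3:**
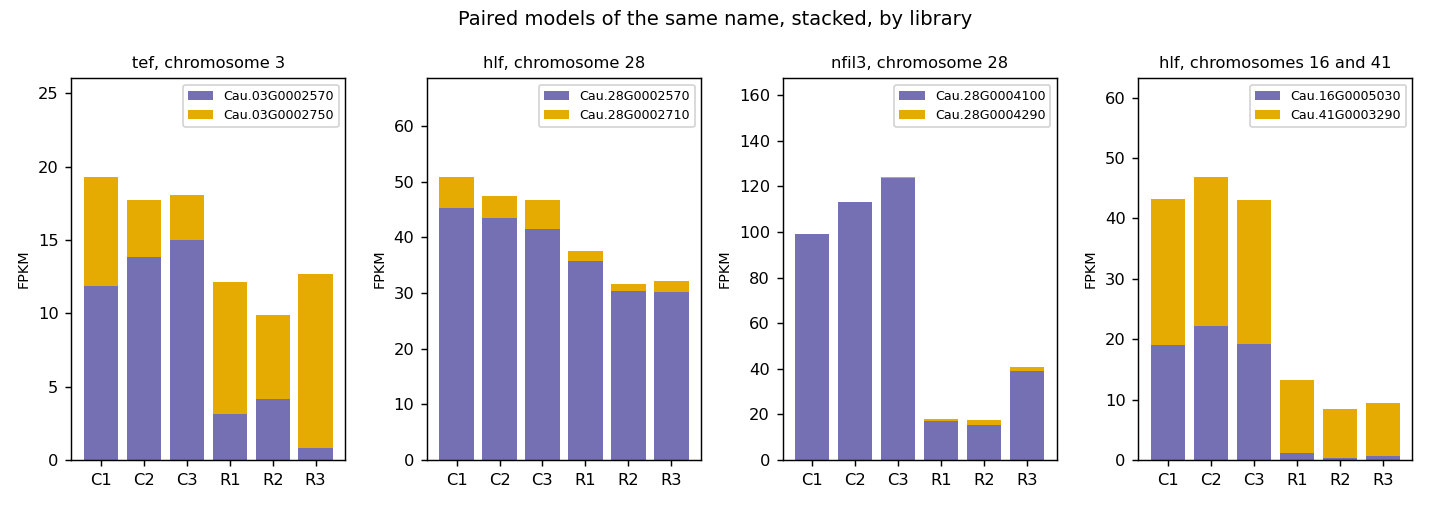
FPKM of paired models of the same name, stacked, in each library (C1 to C3, then R1 to R3): copies with the same best goldfish protein on chromosome 3 (tef) and on chromosome 28 (hlf and nfil3), and the hlf copies of chromosomes 16 and 41. The tef copies trade places between the letters while their sum is 17.7 to 19.3 FPKM in C and 9.85 to 12.7 FPKM in R, and the chromosome 16 share of hlf is nearly gone in R.

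Because reads of near-identical copies can be split between models, FPKM was also summed over all models of a name and fitted over all 12592 names tested. Of the 6 member names, 3 were called, where 19.2% of all names were called, 7.93% higher and 11.2% lower. The hlf sum was 136, 146 and 130 FPKM in C, against 95.4, 85.6 and 97.9 FPKM in R (log2 fold change 0.56, SE 0.10, adjusted p = 0.00978). The nfil3 sum was 135, 150 and 158 FPKM in C, against 54.4, 63.3 and 111 FPKM in R (log2 fold change 1.01, SE 0.24, adjusted p = 0.0234). The median of single nfil3 models, at -0.39, had the opposite sign to this sum, which follows its most abundant copy. That median is the value of a low model, Cau.22G0011310, with 21 reads in C and 41 in R. The median was negative in every alternative, but close to 0 in some. It was -0.0098 with a mean of at least 5 FPKM, -0.036 without R2 and -0.029 without R3. With Cau.03G0005010 added, the nfil3 sum was 617, 655 and 737 FPKM in C, against 149, 223 and 449 FPKM in R (log2 fold change 1.43, adjusted p = 0.0237).

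The arntl sum was lower in C, at 32.1, 32.9 and 33.7 FPKM in C, against 44.0, 44.4 and 47.2 FPKM in R (log2 fold change -0.44, SE 0.09, adjusted p = 0.0142). The clock sum, with 45.3, 41.8 and 32.0 FPKM in C, against 48.9, 54.3 and 56.3 FPKM in R, did not overlap either but missed the threshold (log2 fold change -0.43, 95% interval -0.75 to -0.10, adjusted p = 0.0698, and 0.0267 with quantile normalization or 0.0405 with limma-voom). Most of the clock sum came from the NPAS2-like models of chromosomes 5 and 30, whose letters overlapped. Together they had a mean of 25.5 FPKM in C and 29.2 FPKM in R, out of 39.7 and 53.2 FPKM for the name. The clock models without them were not fitted as a sum. The tef sum was 94.5, 110 and 116 FPKM in C, against 105, 97.3 and 94.8 FPKM in R, and overlapped (log2 fold change 0.10, 95% interval -0.15 to 0.36, adjusted p = 0.543). The arntl2 name, with its 1 model, was not called (adjusted p = 0.16, and 0.039 with quantile normalization). Calls on sums were lost for arntl without C1, R1, R2 or R3 (0.0524 to 0.0628) and with limma-voom (0.0549), for nfil3 without C1 (0.0567), R1 (0.076) or R2 (0.0936), and for hlf without R2 (0.0539). Their lowest adjusted p-values over the alternatives were 0.0108 for arntl, 0.00382 for nfil3 and 0.00319 for hlf.

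Set side by side by class, the activators summed to 78.9, 76.3 and 66.7 FPKM in C, against 93.4, 99.7 and 104 FPKM in R. The PAR bZIP factors summed to 230, 256 and 246 FPKM in C, against 200, 183 and 193 FPKM in R. Neither class overlapped between letters, and they differed in opposite directions. No p is given for these sums or their ratios, since the classes were chosen with results of these data known. The log2 ratio of PAR bZIP to activator sums was 1.55, 1.74 and 1.88 in C, against 1.1, 0.88 and 0.89 in R. The log2 ratio of nfil3 to activator sums was 0.77, 0.98 and 1.25 in C, against -0.78, -0.65 and 0.09 in R.

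Against the repressor, the PAR bZIP sum was lower in C. Their log2 ratio, PAR bZIP over nfil3, was 0.77, 0.77 and 0.64 in C, against 1.88, 1.53 and 0.79 in R. Both sums were higher in C, but that of nfil3 more so, and R3 lay close to C1 in this ratio. The difference of means, C minus R, was -0.67, -0.44 without R1, -0.98 without R3 and -1.09 with Cau.03G0005010 counted as nfil3.

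**Figure D4:**
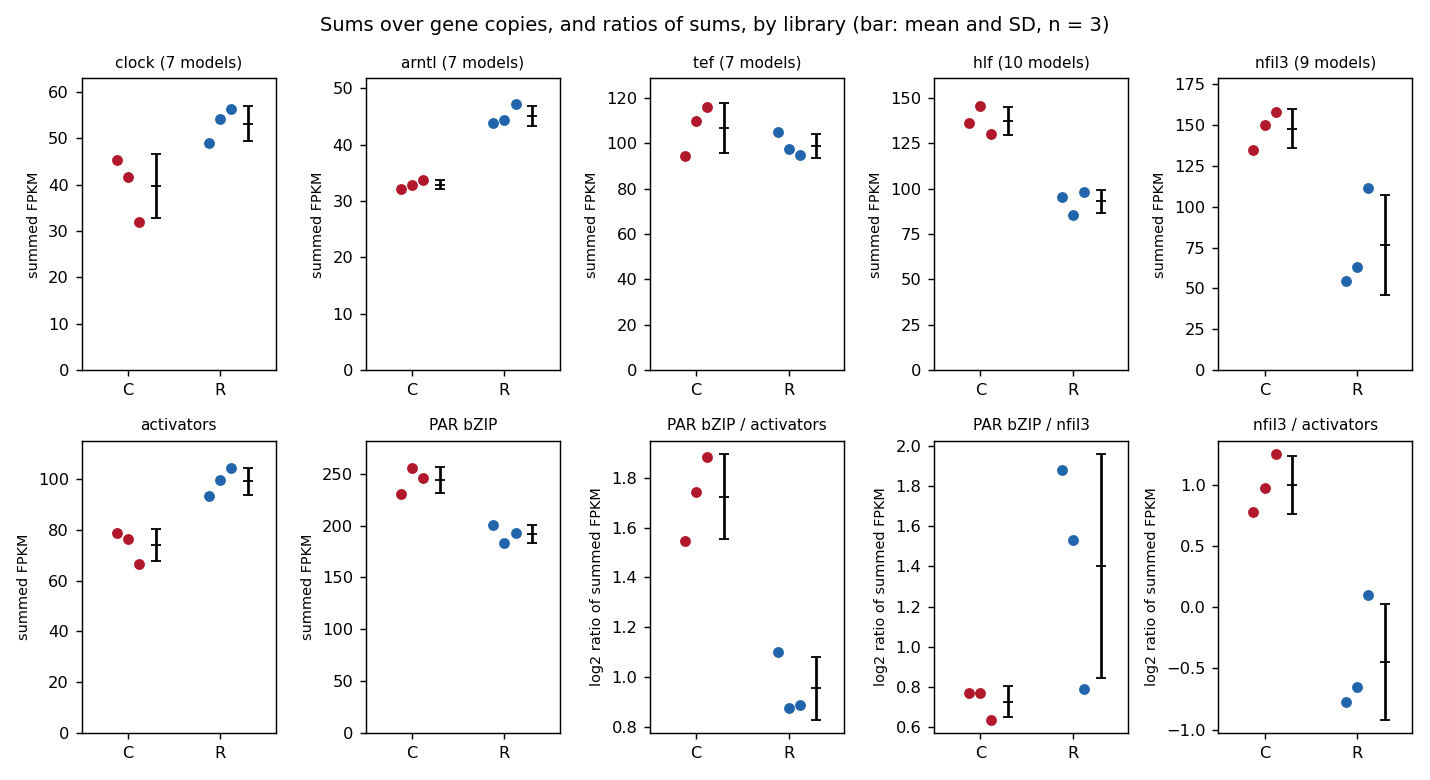
Upper row: FPKM summed over the models of each name in each library (points; C left, R right), with mean and SD of 3 libraries (bars). Lower row: sums over activators and PAR bZIP factors, and log2 ratios between class sums, whose axes do not start at 0. C lies below R for clock, arntl and the activators and above R for hlf, nfil3 and the PAR bZIP factors, and R3 nearly meets C in the ratio of PAR bZIP to nfil3.

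The copies fell into pairs by chromosome number. The files place models on 50 numbered chromosomes, and 36 of the 41 members had a model of the same name 25 chromosome numbers away, against 71.8% of all named models on numbered chromosomes. The number of models per name was not matched in this comparison. The member names other than arntl2 have 7 to 10 models each, and names with more models meet it more readily. Within these chromosome pairs the arntl copies of chromosomes 25 and 50 were both called lower, and the hlf copies of chromosomes 16 and 41 both called higher. On chromosomes 1 and 26, clock was called lower at Cau.01G0004500 and Cau.26G0000020 but not called at Cau.26G0000430. The nfil3 copies of chromosomes 3 and 28 were called in opposite directions, Cau.03G0005020 lower (log2 fold change -1.25) and Cau.28G0004100 higher (2.30). In the clock pair of chromosomes 20 and 45 and the hlf pair of chromosomes 12 and 37, only 1 copy was called, and the difference between copies was not tested. Summed FPKM of clock on chromosomes 20 and 45 was 4.79, 5.67 and 3.16 in C, against 8.44, 9.78 and 10.3 in R. Summed hlf on chromosomes 16 and 41 was 43.2, 46.8 and 43.1 FPKM in C, against 13.2, 8.42 and 9.41 FPKM in R, and on chromosomes 12 and 37 it was 9.84, 15.5 and 11 FPKM in C, against 16.1, 21.2 and 29.8 FPKM in R. The hlf sums of these chromosome pairs thus differed between the letters in opposite directions.

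The rest of the clock was read from a list of its repressors, nuclear receptors, kinases, light-responsive repair genes and melatonin enzymes, which held no member and 91 models. Of the 71 tested, 28 were called higher and 10 lower in C, where 8.67% of all tested models were called higher and 11.6% lower. The median log2 fold change was 0.16 against -0.09 for all tested models. Leaving out R1 or R2 brought the calls down to 22 and 21. All tested models of per1 (3), per2 (4), per3 (1), ciart (4) and bhlhe40 (2) were called higher, and 5 of 7 rorb models were called lower with none higher. Of those 5, Cau.27G0013430 reached 1 FPKM only in R (0.0435 to 0.158 FPKM in C and 1.21 to 5.67 FPKM in R). A difference was thus built into its passing the filter. With a mean of at least 5 FPKM, 4 of 6 rorb models were called lower. The per1 model Cau.10G0005180 and the per2 model Cau.10G0005170 lie next to each other on the same strand. They have the same best goldfish protein, so they may not be separate genes. Products of the per, ciart and bhlhe40 genes repress CLOCK and BMAL1, and rorb encodes a nuclear receptor. The cryptochromes, which repress together with the period proteins, were mixed: of 12 cry1 models 1 was called higher, 1 lower and 10 were not called, and 2 of 3 cry2 models were called higher. Calls in these families depended on single libraries. Without C1, R1, R2 or R3, 1 of the 3 per1 models was still called. Both bhlhe40 calls were lost without C1, C2, R1 or R2, and that of per3 without C1, C2, R1, R2 or R3, and all 3 also with quantile normalization. At least 3 of 4 models of per2 and of ciart were called in every alternative. With the median ratio set to 0, 2 of the rorb models had a positive log2 fold change, and neither was called. The smallest adjusted p-value belonged to ciart, a repressor of CLOCK and BMAL1 in mammals, with 21.8, 25.7 and 24.1 FPKM in C, against 5.03, 3.33 and 4.98 FPKM in R at Cau.19G0004220 (log2 fold change 2.20, SE 0.16, adjusted p = 0.000209), and ciart also rose at Cau.44G0003110 (log2 fold change 1.68, SE 0.14, adjusted p = 0.000369).

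The others named by the same ranking encode nuclear receptors that act on the arntl promoter in mammals. REV-ERB alpha, the product of nr1d1, represses there, and its gene was higher in C at Cau.28G0014450, with 42.1, 51.4 and 48.5 FPKM in C, against 16.1, 15.4 and 13.7 FPKM in R (log2 fold change 1.59, SE 0.12), and at Cau.03G0016560 (log2 fold change 1.74, SE 0.14). Of 4 tested nr1d1 models 3 were called higher, of which 2 are adjacent on chromosome 3. For nr1d2, in the same list, all 5 tested models had a positive log2 fold change, but 1 was called higher and 4 were not called. Among those not called was the most abundant, Cau.44G0011670 (log2 fold change 0.14, adjusted p = 0.391). RORs activate the arntl promoter in mammals, and their genes did not move together. The rorb gene was lower in C at Cau.33G0004860, with 17.0, 22.3 and 15.1 FPKM in C, against 68.5, 65.0 and 80.2 FPKM in R (log2 fold change -1.93, SE 0.16), and at the adjacent Cau.33G0004850 (log2 fold change -1.52, SE 0.14). Of 6 rora models, 2 were called higher and 1 lower. The higher ones, chosen for print after their values were seen, were Cau.41G0002370, with 73.4, 64.6 and 95.3 FPKM in C, against 45.3, 45.3 and 51.3 FPKM in R (log2 fold change 0.69, adjusted p = 0.0226), and Cau.16G0003500 (log2 fold change 0.65, adjusted p = 0.0285). Neither was called without R1 or R2, and only 1 rora model was called higher without C1, C2, C3 or R3 or with quantile normalization. The lower one was Cau.07G0006470 (log2 fold change -0.74, adjusted p = 0.00619). Adjusted p-values of the 2 nr1d1 and 2 rorb models named by the ranking were 0.000281 to 0.00057. In the same libraries, arntl and clock models were called lower in C or not called, and none was called higher except the single arntl2 model with quantile normalization. The most abundant arntl model, Cau.07G0014540, was not called and had a log2 fold change of 0.18. A link between the receptor genes and the arntl or clock levels was not tested.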

How the data were processed

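The deposited table holds FPKM, made by the authors per kilobase of gene length and scaled to the library total, per the file headers and the values; multiplied by model length and divided by a library constant, at least 99.998% of values came out as whole reads (tolerance 0.01 of a read), and these recovered reads gave depth and the limma-voom alternative. The 2 single-group tables repeat these values exactly. Bowtie 0.12.5, TopHat2 2.0.9, DESeq 1.10.1 and a pig build (Sscrofa10.2) are named in the submitters' processing notes without roles. No source used here names the goldfish assembly, the read counter or whether strand was used.

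Tests used limma 3.58.1 (trend, robust) in R 4.3.3 on log2(FPKM + 1), 3 C against 3 R libraries, with the letter as sole term and adjustment (Benjamini-Hochberg) over all models with at least 1 FPKM in at least 3 libraries. This log2 scale understates changes of low models. The same fit was made on FPKM summed by lower-cased Swiss-Prot gene name, and, as an alternative, by best goldfish protein. The source fish of each library is unnamed in the labels, and the p-values thus cover only library-to-library spread, which may be technical. Intervals and floors cover counting error only where they come from reads.

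All 36 tested members and, of the other clock genes, the 6 with the smallest adjusted p are named by rule. Some further per1, per2, rora, rorb and nr1d2 models are named outside that rule, with their values known. Members, lists and tests were chosen with earlier results of these data known. Alternatives were other pseudocounts, filters and scalings, limma-voom, a replicate block and each library left out. Sequences and promoters were not analysed here.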

Additional observations from a re-analysis of the deposited data

How the results depend on the processing

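Of 13 called members, 6 kept their call in every alternative that tested them. The number of members called was 13, and 6 to 11 with 1 library left out, with the lowest counts without R2 (6), C1 (7) and R3 (8). With limma-voom it was 17 (9 higher and 8 lower), where 7349 of all tested models were called. That setting called 8 of 15 PAR bZIP models higher. The number of member names called was 3, against 5 with quantile normalization and 0 to 3 with 1 library left out (0 without R2, where limma gave 4 of 5 at an unadjusted p under 0.05, and 1 without C1 or R1). Quantile normalization called 2592 of all 12592 names tested. Calls among all tested models were 6864, against 3670 with a mean of at least 5 FPKM, which tests fewer models, and 2569 to 5942 with 1 library left out. Calls among other clock genes were 38, and 21 to 34 with 1 library left out. A fit with fewer samples has less power, but the counts did not fall in every case and depended on which library was left out. Without C3, 2722 of all names tested were called, against 2413 in the main fit. Among all tested models, 5942 were called without C2 and 2569 without R2. The log2 difference of the PAR bZIP sum moved from 0.35 to 0.45 with the median ratio set to 0. In the same setting the median log2 fold change of activator models shrank from -0.45 to -0.37. No called member changed sign. Among members that were not called, the log2 fold change changed sign with quantile normalization for Cau.10G0001100 (0.091), Cau.18G0003240 (0.13), Cau.26G0000430 (0.076), Cau.35G0000980 (0.070) and the tef sum (-0.014), and with the median ratio set to 0 for Cau.26G0000430 (0.037) and Cau.35G0000980 (0.080). With 1 library left out it ran from -0.35 to 0.089 for Cau.10G0001100, from -0.37 to 0.049 for Cau.18G0003240, from -0.20 to 0.20 for Cau.26G0000430, from -0.062 to 0.045 for Cau.35G0000980 and from -0.22 to 0.033 for Cau.37G0005400. The cause was not tested.

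Libraries with the same replicate number did not deviate together (correlations -0.0052, 0.099 and 0.039), and C1 and C3 correlated best with another number. With a replicate block, 10 members were called (5 higher, 5 lower), 3 names, 37 other clock genes and 5971 of all models. The calls lost were those of Cau.01G0004500 (adjusted p = 0.0601), Cau.26G0000020 (0.0569) and Cau.28G0002570 (0.0519) in limma. Depth limits the models with few reads, both below the filter (0 to 166 reads per letter) and above it, such as Cau.22G0011320 (11 in C and 26 in R).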
